A study of Mus musculus with 4 samples.

Results

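The pluripotency genes of mouse embryonic stem cells were followed through RNA immunoprecipitates of FLAG-tagged mutant Dis3l2. The 36 genes were chosen by symbol in the deposited mRNA table. All 36 were found among its 16470 transcripts, with 1 listed transcript each. They were not picked by a rule on measured values, but earlier results of these data were known when they were chosen.

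The series searched for RNAs bound by mutant Dis3l2, a 3′ to 5′ exoribonuclease that prefers RNAs with uridine tails. It holds 1 library for each of 4 groups. The mutant IP is RNA that anti-FLAG M2 gel recovered from cells transfected with FLAG-tagged mutant Dis3l2, and the mock IP is RNA that the same gel recovered from mock-transfected cells. The mutant input and the mock input are RNA of the same transfections after RiboMinus selection, a depletion of ribosomal RNA, with no antibody. All cells were C57BL/6 embryonic stem cells at passages 25 to 30, kept without feeders on gelatin in medium with LIF and serum. The labels name neither the mutation nor its promoter, and they do not say whether transfected cells were selected, cloned or pooled. With 1 library per group there is no replicate, so every difference below compares libraries, and no difference has a replicate check or a p-value.

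Embryonic stem cells keep their identity through a circuit of transcription factors around Pou5f1 (Oct4), Sox2 and Nanog, which activate each other and a wider set of genes. LIF sustains this state in mouse cells through its receptor and the transcription factor Stat3, whereas FGF4 and Nodal signals act on the readiness to differentiate. In serum and LIF, mouse stem cells express factors of the naive state, such as Esrrb, Klf2, Klf4 and Tfcp2l1. No sequence is printed here, because the comparisons concern whole mRNAs and transcript sequences were not used.

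The values are read numbers divided by 1 factor per library, 2.7 for the mutant IP, 1.8 for the mutant input and 2.5 for both mock libraries. They were not divided by transcript length, so levels of different genes are not ranked. The inputs were shallow. The table holds 2275647 reads for the mutant IP, 1860030 for the mock IP, 307324 for the mutant input and 291175 for the mock input, and a single gene, Lars2, takes 33.3% to 58.6% of each. The 36 genes together had 8561 reads in the mutant IP, 6142 in the mock IP, 483 in the mutant input and 605 in the mock input. As shares of each library these are 0.376% (exact 95% interval 0.368 to 0.384), 0.330% (0.322 to 0.339), 0.157% (0.143 to 0.172) and 0.208% (0.192 to 0.225). PCR copies are not independent molecules, so the intervals here and below hold counting error alone.

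Zeros were more frequent in this table than neighbouring low counts, which bears on every gene with few reads. Among 1934 transcripts with 10 to 19 reads in the sum of the IPs, 46.4% had 0 reads in 1 of the IPs, while 98 had exactly 1 read there. Among 2038 transcripts with 10 to 19 reads in the sum of the inputs, 18.2% had 0 reads in 1 input, and at 20 to 49 reads this share was 2.14%. The intervals do not include this spread.

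The libraries carried the RNA of stem cells. Pou5f1, Sox2, Nanog, Zfp42 and Tdgf1 had reads in all 4 libraries. Markers of other cells were also measured. Endoderm markers summed to 38 reads in the mutant IP, 43 in the mock IP, 24 in the mutant input and 30 in the mock input over the 8 of 11 listed genes in the table. Mesoderm markers (7 of 8 in the table) had 30, 27, 20 and 36 reads in the same order of libraries, and trophectoderm markers (8 of 8) had 140, 102, 20 and 17. Cdx2, Mixl1, Tbx6 and Dab2 had 0 reads in all 4 libraries. Ectoderm markers (8 of 9) had 157, 141, 85 and 135 reads, of which the transcription factor gene Zic1 held 66 in the mutant input and 117 in the mock input. The 4 core pluripotency factors together had 77 reads in the mutant input and 110 in the mock input. Fibroblast markers (6 of 10) had 230 reads in the mutant IP against 105 in the mock IP, and 22 and 21 in the mutant and mock inputs. The part of these other cells in the values below was not tested.

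**Figure D1:**
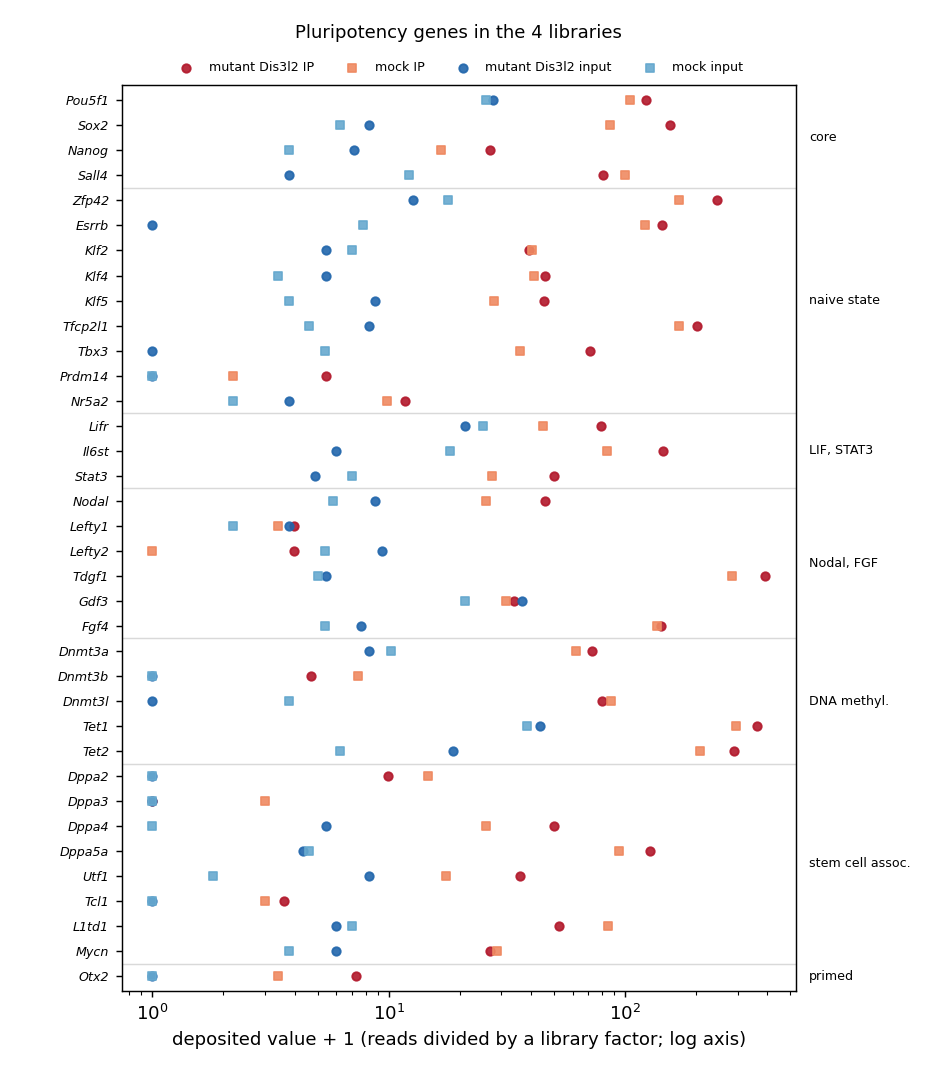
Deposited value plus 1 (log axis) of the 36 pluripotency genes in the mutant Dis3l2 IP, mock IP, mutant Dis3l2 input and mock input, 1 point per library, grouped by role. Most genes have both IP points to the right of both input points. Gdf3 (33.0, 30.4, 35.6 and 20), Lefty1, Lefty2 and Dppa3 do not show this gap. Both inputs are at 0 for 6 genes, of which Dppa3 is also at 0 in the mutant IP.

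The IPs were compared to see which mRNAs were recovered with the tagged protein beyond the background of the gel. The pluripotency mRNAs were not set apart from the table. Their median log2 ratio, with a pseudocount of 1 on the values, was 0.28 over the 36 genes, against 0.38 over 14273 transcripts, and 17 genes lay above the table's median and 19 below it. A difference of at least 4-fold was found for 0 of 36, where 10.1% of transcripts were higher and 5.74% lower by that much. At least 2-fold, 4 of 36 were higher (11.1%, against 28.8% of all transcripts) and 1 was lower (2.78%, against 15.0%). A smaller share of these genes than of all transcripts was past 2-fold. The shares move with depth. With at least 100 reads in the sum of the IPs, 1 of 27 was higher, against 15.1%, and 0 of 27 lower, against 1.63%. With libraries centred on the median ratio, the split of 4 higher and 1 lower became 1 and 1. The higher gene was then Lefty2, and the lower gene was L1td1 and not Dppa3, which was no longer measured.

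The summed reads of the 36 genes gave a ratio of 1.29 (95% interval 1.25 to 1.33), and all transcripts without Lars2 gave 1.31. Below, each gene's ratio is therefore set against the median ratio of all transcripts, 1.3, as well as against 1. That median comes from log2 values with a pseudocount of 1, while the genes' ratios and intervals have none. A gene's 95% interval was wholly above 1.3 for 9 of 36 genes (25.0%, against 25.8% of all transcripts) and wholly below it for 7 (19.4%, against 25.1%). With at least 100 reads these were 8 of 27 above, against 25.5%, and 5 of 27 below, against 24.9%. These shares are near the background of the table.

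The core factors took different places in the spread of the table. Pou5f1, the POU factor at the centre of the circuit, had values of 122 in the mutant IP, 104 in the mock IP, 26.7 in the mutant input and 24.8 in the mock input. Its IP ratio was 1.17 (0.989 to 1.38), which includes both 1 and 1.3. Sox2, the partner that binds DNA with Pou5f1, had 154 in the mutant IP against 85.2 in the mock IP, with 7.22 and 5.20 in the mutant and mock inputs. The Sox2 ratio of 1.81 (1.53 to 2.14) lay above the median of the table. Nanog, a homeobox factor that stabilises the undifferentiated state, had 25.9, 15.6, 6.11 and 2.80 in the order mutant IP, mock IP, mutant input and mock input, an IP ratio of 1.66 (1.11 to 2.53). Sall4, a zinc finger factor that works with Pou5f1, was lower in the mutant IP, at 79.3 against 98.8 in the mock IP, which gives a ratio of 0.802 (0.665 to 0.967). Its values were 2.78 in the mutant input and 11.2 in the mock input. Of these 4 genes, Sox2 was above the table's median ratio and Sall4 below it, and neither passed 2-fold.

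The 3 genes listed here for LIF signalling each had an interval wholly above the median ratio of all transcripts. So had 25.8% of all transcripts, and 25.5% of those with at least 100 reads in the sum of the IPs. Lifr encodes the LIF receptor and had 77.8 in the mutant IP against 44 in the mock IP, with 20 in the mutant input and 24 in the mock input. Il6st, the gp130 chain that pairs with it, had 143 in the mutant IP against 82.8 in the mock IP, with 5 in the mutant input and 17.2 in the mock input. Stat3, the factor that the receptor activates, had 48.9 in the mutant IP against 26.4 in the mock IP, with 3.89 in the mutant input and 6 in the mock input. The IP ratios were close to each other, at 1.77 for Lifr (1.40 to 2.25), 1.73 for Il6st (1.46 to 2.06) and 1.85 for Stat3 (1.37 to 2.53). None reached 2-fold on the log2 scale, where the values were 0.81, 0.78 and 0.86. Values above 0 were common in the table, at 9282 of 14273 transcripts.

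Among the naive state factors, 8 of 9 had a log2 IP ratio above 0, as had 9282 of all 14273 transcripts, and 4 of 9 lay above the table's median. Zfp42 (Rex1), a zinc finger marker of undifferentiated cells, had values of 244 in the mutant IP, 168 in the mock IP, 11.7 in the mutant input and 16.8 in the mock input. Tfcp2l1, a target of Stat3, had 200 in the mutant IP against 168 in the mock IP, with 7.22 and 3.60 in the mutant and mock inputs. Esrrb, an orphan nuclear receptor of the circuit, had 142 in the mutant IP against 120 in the mock IP, with 0 in the mutant input and 6.80 in the mock input. Their IP ratios of 1.45 (1.28 to 1.64), 1.19 (1.04 to 1.35) and 1.18 (1.01 to 1.38) had intervals that include the table's median.

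Among the Krüppel-like factors, which can replace each other in part, Klf2 and Klf4 had intervals that include 1 between the IPs and Klf5 had not. Klf2 had 38.2 in the mutant IP against 39.2 in the mock IP, and 4.44 and 6 in the mutant and mock inputs. Klf4, one of the reprogramming factors, had 44.8 in the mutant IP against 40 in the mock IP, and 4.44 and 2.40 in the mutant and mock inputs. Klf5 had 44.4 in the mutant IP against 26.8 in the mock IP, and 7.78 and 2.80 in the mutant and mock inputs. The Klf2 ratio of 0.973 (0.731 to 1.3) was the only one of the 3 with an interval below the table's median, and its upper end lies almost on it. Klf4 and Klf5 gave 1.12 (0.853 to 1.48) and 1.66 (1.22 to 2.27).

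Tbx3, a T-box factor downstream of LIF, had the largest ratio among naive state factors with at least 50 reads in the mean of the IPs. Its values were 70.4 in the mutant IP, 34.8 in the mock IP, 0 in the mutant input and 4.40 in the mock input. The ratio was 2.02 (1.56 to 2.64), while the log2 value with the pseudocount was 0.995, just inside the 2-fold threshold. Prdm14, which restrains DNA methylation in naive cells, was past it with few reads, 12 in the mutant IP against 3 in the mock IP, and 0 in both inputs. Its ratio of 3.70 had an interval from 1 to 20.5. Nr5a2, a nuclear receptor that binds the Pou5f1 gene, had 29 and 22 IP reads and a ratio of 1.22 (0.677 to 2.23).

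Of the ligands and their cofactor, Nodal was above the table's median and Fgf4 below it. Nodal, a TGF-beta family signal, had values of 44.8 in the mutant IP, 24.8 in the mock IP, 7.78 in the mutant input and 4.80 in the mock input. Tdgf1 (Cripto), the membrane cofactor Nodal needs, had 390 in the mutant IP, 282 in the mock IP, 4.44 in the mutant input and 4 in the mock input. Fgf4, a growth factor activated by Pou5f1 and Sox2, had 141 in the mutant IP against 135 in the mock IP, and 6.67 and 4.40 in the mutant and mock inputs. The IP ratios were 1.81 for Nodal (1.32 to 2.50), 1.38 for Tdgf1 (1.26 to 1.52) and 1.04 for Fgf4 (0.899 to 1.21). Gdf3, a relative of Nodal, had 33.0 in the mutant IP, 30.4 in the mock IP, 35.6 in the mutant input and 20 in the mock input, an IP ratio of 1.08 (0.789 to 1.49). Lefty2, an inhibitor of Nodal, had 8 reads in the mutant IP against 0 in the mock IP, so it was at least 2.47-fold higher against a floor of 3 reads in the mock IP. Its paralogue Lefty1 had 8 reads in the mutant IP against 6 in the mock IP, which gives a ratio of 1.23 (0.376 to 4.32). How reads shared by these related genes were counted was not given in the sources used here.

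Enzymes of DNA methylation were close to the table or below it. Tet1 and Tet2 oxidise methylcytosine. Tet1 had 360 in the mutant IP, 293 in the mock IP, 42.8 in the mutant input and 37.6 in the mock input, and Tet2 had 287, 206, 17.8 and 5.20 in the same order. Dnmt3a, a de novo methyltransferase, had 71.5 in the mutant IP against 60.8 in the mock IP, with 7.22 and 9.20 in the mutant and mock inputs. Their ratios were 1.23 (1.12 to 1.36), 1.39 (1.24 to 1.56) and 1.18 (0.946 to 1.46), and all 3 intervals include 1.3. Dnmt3l, the inactive partner that stimulates the methyltransferases, had 78.5 in the mutant IP against 86 in the mock IP, with 0 in the mutant input and 2.80 in the mock input. The Dnmt3l ratio was 0.913 (0.752 to 1.11), below the table's median. Dnmt3b was poorly covered, with 10 reads in the mutant IP, 16 in the mock IP and 0 in both inputs. The table lists 1 of its 9 curated RefSeq transcripts, and the counting of reads from the others was not given in the sources used here. In all, 15 of the 36 genes have more than 1 curated RefSeq transcript.

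The remaining stem cell genes held both the highest and the lowest well-covered ratios. Utf1, a chromatin-associated factor restricted to pluripotent and germ cells, had 34.8 in the mutant IP, 16.4 in the mock IP, 7.22 in the mutant input and 0.8 in the mock input. Its ratio was 2.12 (1.46 to 3.14). Utf1 was the only gene past 2-fold on the log2 scale among the 27 with at least 100 reads in the sum of the IPs. The Tbx3 ratio was 2.02, but its log2 value with the pseudocount was 0.995. With median centring the log2 value of Utf1 was 0.64, under that threshold. Dppa4, a DNA-binding protein of early embryos, had 48.9 in the mutant IP, 24.8 in the mock IP, 4.44 in the mutant input and 0 in the mock input, an IP ratio of 1.97 (1.45 to 2.71). At the other end stood L1td1, an RNA-binding protein derived from a LINE-1 element, with 51.5 in the mutant IP, 83.6 in the mock IP, 5 in the mutant input and 6 in the mock input. The L1td1 ratio of 0.616 (0.493 to 0.767) was the lowest of those 27, and it stayed within 2-fold; after median centring its log2 value was -1.03, past that threshold.

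Dppa5a, an RNA-binding KH domain protein, had 126 in the mutant IP, 93.2 in the mock IP, 3.33 in the mutant input and 3.60 in the mock input. Mycn, a Myc family factor, had 25.9 in the mutant IP, 27.6 in the mock IP, 5 in the mutant input and 2.80 in the mock input. With IP ratios of 1.35 (1.14 to 1.60) and 0.939 (0.664 to 1.33), neither interval was clear of the table's median. Otx2, which marks the move to the primed state, had 17 reads in the mutant IP against 6 in the mock IP, which gives a ratio of 2.62 (0.987 to 8.13) that passed 2-fold. Dppa3 (Stella) had 0 reads in the mutant IP against 5 in the mock IP. It was the single gene past 2-fold on the lower side, and against the floor of 3 reads it was at least 1.8-fold lower. Dppa2 had 24 and 34 IP reads in the mutant and the mock, and Tcl1 had 7 and 5. On the log2 scale, the 4 genes past 2-fold on the higher side were thus Utf1, Otx2, Prdm14 and Lefty2. Of these, 3 had at most 17 reads in either IP.

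**Figure D2:**
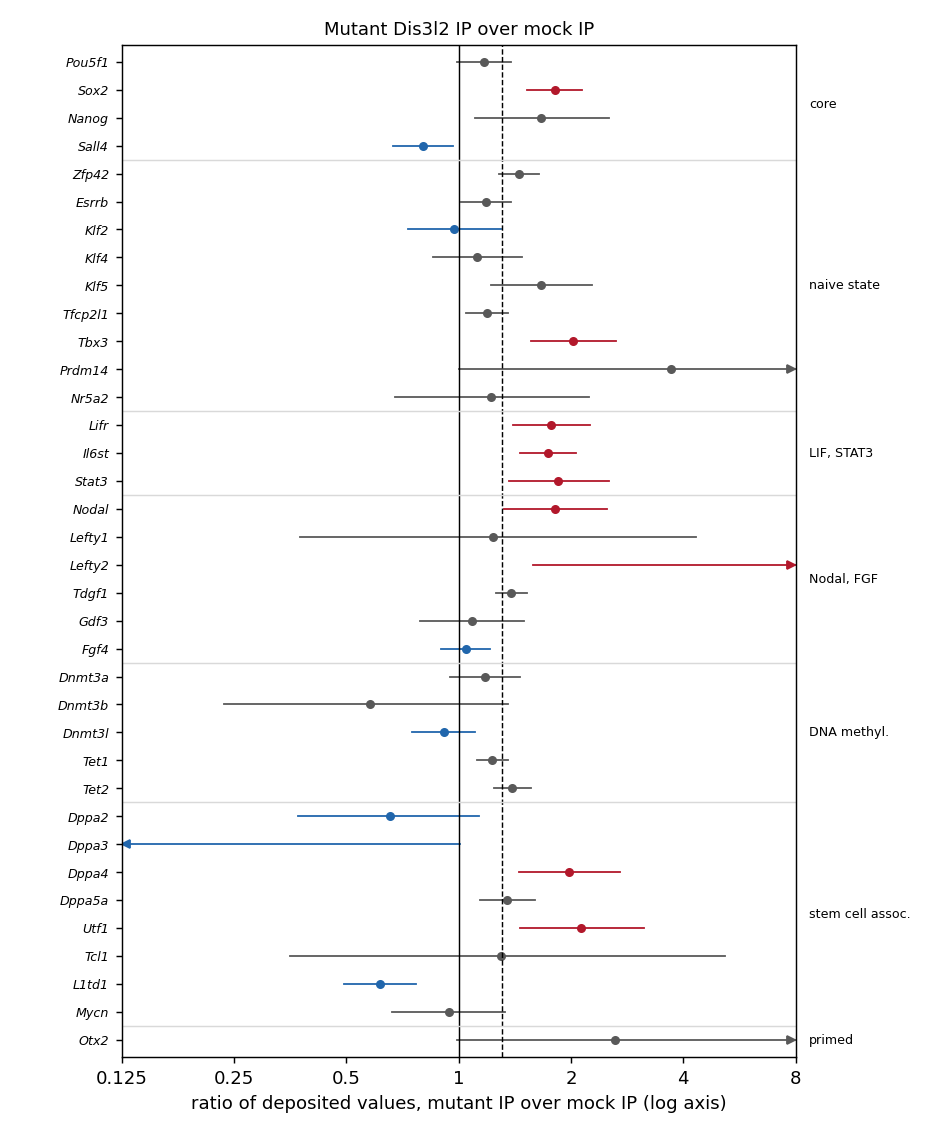
Ratio of deposited values in the mutant Dis3l2 IP over the mock IP for the 36 genes (log axis), with exact 95% counting intervals; arrowheads mark intervals that run past the axis or have no finite end. The solid line is 1 and the dashed line the median ratio of all transcripts, 1.3, from log2 values with a pseudocount of 1. Intervals wholly above the dashed line are red (9 genes) and wholly below it blue (7 genes). Lefty2 and Dppa3 have no point because 1 library had 0 reads.

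The inputs were compared to see whether the level of these mRNAs differed between the transfected cells. At this depth few genes could be told apart. The table's median log2 ratio was 0.51 over 9367 transcripts, and that of the 30 measured pluripotency genes was 0.29. The other 6 genes, Prdm14, Dnmt3b, Dppa2, Dppa3, Tcl1 and Otx2, had 0 reads in both inputs. At least 2-fold, 4 of 30 were higher (13.3%, against 37.0% of all transcripts) and 5 were lower (16.7%, against 21.8%). At least 4-fold, 2 were higher (Dppa4 and Utf1, against 10% of transcripts) and 2 lower (Esrrb and Tbx3, against 4.74%). An interval clear of the table's median was found above it for 3 of 30 genes (10%, against 14.1%) and below it for 7 (23.3%, against 15.1%). The split past 2-fold became 3 higher and 7 lower with equal library totals. The summed reads of the genes gave a ratio of 1.11 (0.982 to 1.25), where all transcripts without Lars2 gave 1.5. Fewer cells of a type and less RNA per cell cannot be told apart in such bulk samples.

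Of the 5 genes at least 2-fold lower in the mutant input, 3 had no read there. The naive state factors as a group split evenly, with 4 of 8 measured above 0 on the log2 scale and 4 below. Esrrb had 0 reads in the mutant input and 17 in the mock input, at least 4.08-fold lower against the floor of 3 reads. Tbx3 had 0 and 11 reads, at least 2.64-fold lower, and Dnmt3l had 0 and 7, at least 1.68-fold lower. Dnmt3l falls among the 2631 transcripts with 5 to 9 reads in the sum of the inputs, of which 55.4% had 0 reads in 1 input. Esrrb and Tbx3 fall among those with 10 to 19 reads, where this share was 18.2%. The same 3 genes had 383, 190 and 212 reads in the mutant IP.

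Il6st and Sall4 were lower without a zero. Il6st had 9 reads in the mutant input and 43 in the mock input, which gives a ratio of 0.291 (0.125 to 0.605), and Sall4 had 5 and 28, a ratio of 0.248 (0.0748 to 0.651). Lifr and Stat3 gave 0.833 (0.535 to 1.28) and 0.648 (0.224 to 1.69), whose intervals include 1; that of Lifr was below the table's median ratio of 1.42. The log2 values between the inputs were below 0 for the 3 genes listed for LIF signalling, as for 3569 of all 9367 transcripts. They were -0.25 for Lifr, -1.60 for Il6st and -0.52 for Stat3.

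Tet2, Utf1, Dppa4 and Klf5 were at least 2-fold higher in the mutant input on the log2 scale with the pseudocount. Tet2 had 32 reads in the mutant input and 13 in the mock input, which gives a ratio of 3.42 (1.75 to 7.10). Dppa4 had 8 and 0 reads, at least 3.70-fold higher, and Utf1 had 13 and 2, a ratio of 9.03 with an interval from 2.04 to 82.4. Klf5 had 14 and 7 reads, a ratio of 2.78 (1.05 to 8.13). For the core pair the inputs differed by less than counting error, with ratios of 1.08 for Pou5f1 (0.722 to 1.59) and 1.39 for Sox2 (0.593 to 3.25). Tet1, the best covered gene in the inputs with 77 and 94 reads, gave 1.14 (0.831 to 1.55). With at least 20 reads in the sum of the inputs, 2 of 18 genes were higher (Klf5 and Tet2, against 24.9% of transcripts) and 2 lower (Il6st and Sall4, against 7.44%). Of those 18, 1 had an interval above the table's median (Tet2, against 17.6%) and 4 below it (Il6st, Lifr, Sall4 and Zfp42, against 19.6%).

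**Figure D3:**
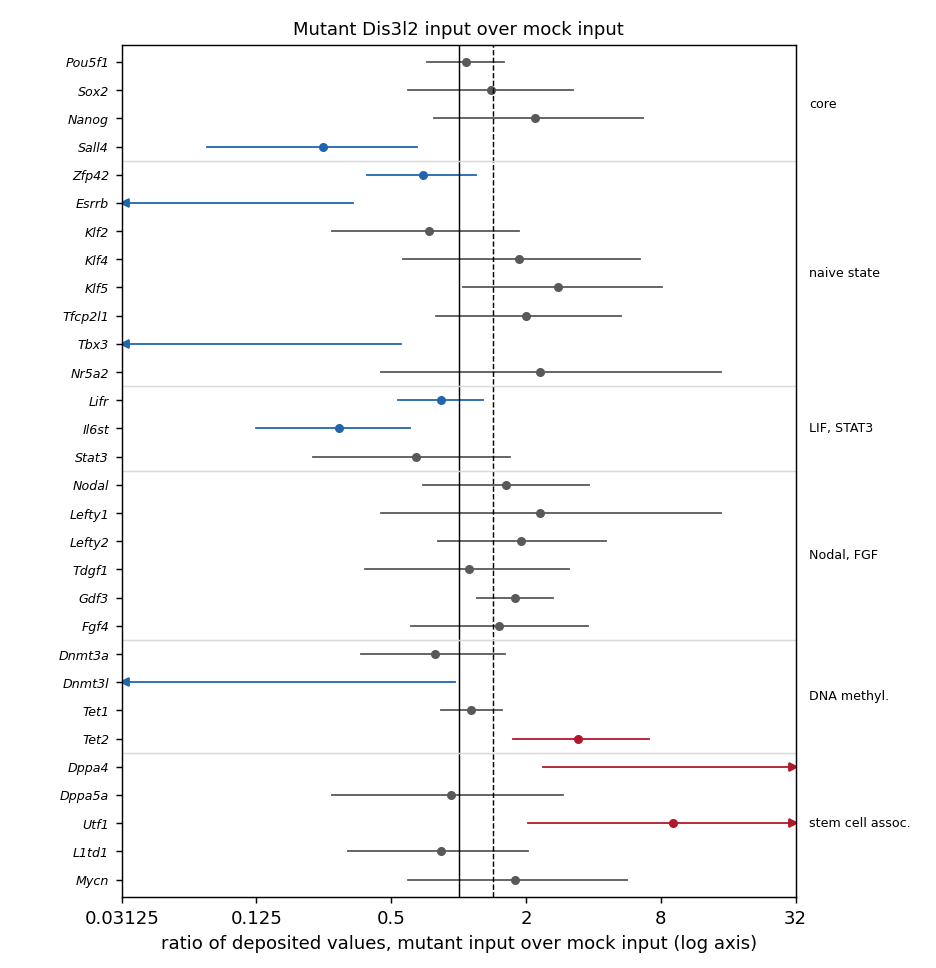
Ratio of deposited values in the mutant Dis3l2 input over the mock input for the 30 genes with reads in an input (log axis), with exact 95% counting intervals; arrowheads mark intervals that run past the axis or have no finite end. The solid line is 1 and the dashed line the table's median ratio, 1.42, from log2 values with a pseudocount of 1. Tet2, Dppa4 and Utf1 lie wholly above the dashed line (red), and 7 genes including Esrrb, Tbx3, Il6st and Sall4 wholly below it (blue).

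IP over input was taken within each condition to set the IP value of each mRNA against its input value. The library factors have no stated meaning, so this ratio does not give the share of an mRNA that the gel retained. Nearly all pluripotency mRNAs had higher values in the IP than in the input, in mutant and mock cells alike. At least 4-fold, 28 of 35 genes were higher in the mutant (80.0%, against 61.1% of all transcripts) and 27 of 36 in the mock (75.0%, against 60.6%). Lower by as much were 0 of 35 in the mutant, against 2.32%, and 1 of 36 in the mock (Lefty2, against 1.92%). At least 2-fold, 32 of 35 were higher in the mutant (against 81.5%) and 1 lower (against 7.24%), and 32 of 36 were higher in the mock (against 82.3%) and 1 lower (against 6.67%). The median log2 ratios were 3.07 in the mutant, against 2.44 for the table, and 2.88 in the mock, against 2.32. In the mock this order turned with the scaling: the genes' median minus that of the table was 0.56 as deposited, -0.25 with median centring, -0.36 with equal totals and -0.01 with equal totals without Lars2. In the mutant it was 0.63, 0.12, 0.13 and 0.23 in the same settings. Rescaling multiplies a whole library by 1 constant, which alone would shift the genes and the table equally. This difference moves because the pseudocount and the filter on low values then act on rescaled values. Without rescaling it was 0.83 in the mock and 1.09 in the mutant with a pseudocount of 5. With a mean value of at least 5 it was 0.02 in the mock and 0.09 in the mutant. The distance from the table was smaller among well-covered transcripts. With at least 100 reads in the sum of the IPs, 24 of 27 genes passed in each condition (88.9%), against 81.5% of transcripts in the mutant and 81.0% in the mock. None of the 27 was 4-fold lower in either condition, against 0.179% in the mutant and 0.246% in the mock. The size of these ratios also depends on the scaling, since with median centring 9 genes were at least 4-fold higher in the mutant and 7 in the mock. Input RNA was selected against ribosomal RNA and IP RNA is not described so, and a ratio of IP to input also holds that difference.

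Tdgf1 was among the genes with the highest IP over input ratios in both conditions. It was at 87.7 times the input value in the mutant (44.3 to 204) and 70.4 times in the mock (38.1 to 147). Tfcp2l1 was at 27.6 times (16.0 to 52.3) in the mutant and 46.7 times (24.3 to 103) in the mock, and Dppa5a at 37.8 (17.2 to 104) and 25.9 (13.4 to 57.3). Fgf4 and Sox2 were at 21.2 and 21.3 times in the mutant and 30.7 and 16.4 times in the mock. Intervals wholly above the table's median were found for 15 of 35 genes in the mutant (against 24.8%) and 16 of 36 in the mock (against 29.7%), but with at least 100 reads for 15 of 27 in each (55.6%), against 51.0% of transcripts in the mutant and 56.4% in the mock. Against the floor of 3 reads, Esrrb was at least 85.1 times its input value in the mutant, and it was at 17.6 times in the mock. Tdgf1, Tfcp2l1, Dppa5a, Fgf4 and Sox2 lay above the table's median ratio in both conditions, as did Dnmt3l, Esrrb, Sall4, Tet1, Tet2 and Zfp42. Pou5f1 and Nanog did not: Pou5f1 was at 4.57 times the input value in the mutant (3.37 to 6.32) and 4.21 in the mock (3.18 to 5.65), and Nanog at 4.24 (2.23 to 8.89) and 5.57 (2.46 to 14.8). The table's medians correspond to 5.44 times in the mutant and 5 times in the mock, from log2 values with a pseudocount of 1. The genes' ratios and intervals have no pseudocount, so these are unlike measures. With a pseudocount of 5 the table's median log2 ratio was 1.31 in the mutant and 1.19 in the mock. Among transcripts with a mean value of at least 5 it was 3.05 and 3.01. Calls above or below the median depend on that choice.

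With the deposited scaling, the ligand and cofactor genes Tdgf1, Fgf4 and Nodal were at least 4-fold higher in the IP in both conditions. The other genes of that list of 6, Gdf3, Lefty1 and Lefty2, stood at the other end. Gdf3, the best covered of them, reached 0.927 times the input value in the mutant (0.665 to 1.3) and 1.52 times in the mock (1.05 to 2.22). Lefty2, with 15 reads in the mutant input and 11 in the mock input, reached 0.356 times the input value in the mutant (0.131 to 0.893) and was at least 3.67-fold below it in the mock. Lefty1 was at 1.07 times (0.308 to 4.14) in the mutant and 2 times (0.427 to 12.4) in the mock. The intervals of Gdf3 and Lefty2 were below the table's median in both conditions, and that of Lefty1 in the mutant. Below-median intervals were found for 3 of 35 genes in the mutant (8.57%, against 17.6% of transcripts) and 3 of 36 in the mock (8.33%, against 15.5%). With at least 100 reads it was 1 of 27 in the mutant (against 12.8%) and 2 of 27 in the mock (against 10.8%). The third gene in the mock was Lifr, at 1.83 times its input (1.33 to 2.55). In the mutant Lifr was at 3.89 times (2.72 to 5.70).

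**Figure D4:**
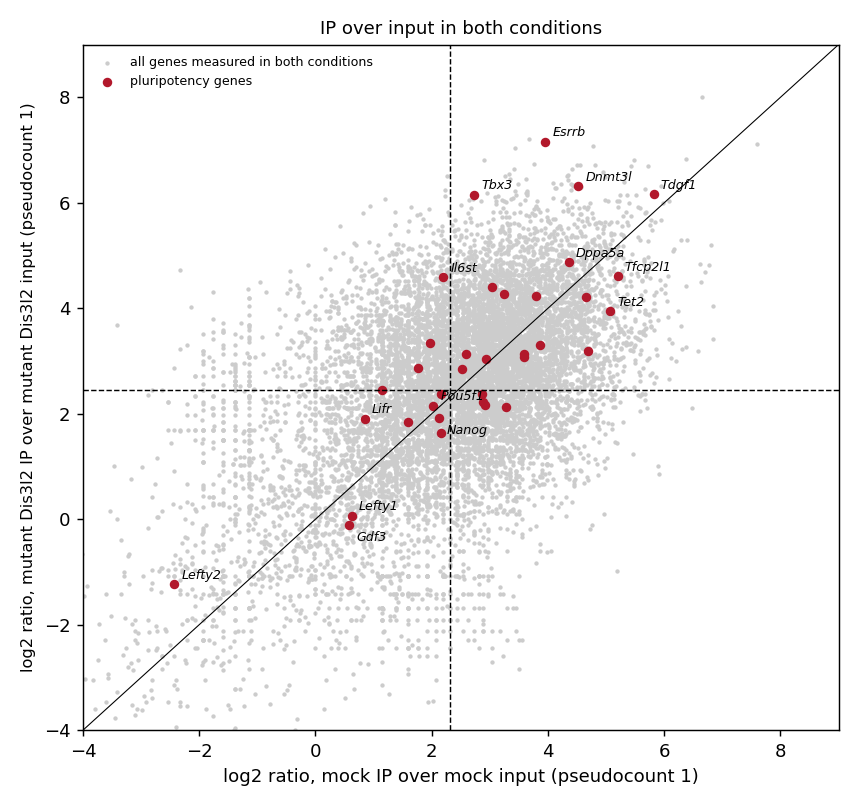
Log2 ratio of mutant Dis3l2 IP over mutant Dis3l2 input (vertical axis) against log2 ratio of mock IP over mock input (horizontal axis), pseudocount 1, for 11688 transcripts measured in both conditions (grey; 59 lie outside the axes) and the pluripotency genes among them (red, some named). Dashed lines are the table's medians, 2.44 and 2.32, and the diagonal marks equal ratios; Tdgf1 lies near the diagonal at the top, Gdf3, Lefty1 and Lefty2 lie at the bottom left, and Esrrb, Tbx3 and Il6st lie above the diagonal.

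The specific enrichment divides IP over input in the mutant by IP over input in the mock. It uses the same 4 libraries as the ratios above and adds no separate observation. Over the 36 genes its median log2 value was 0.18, against 0.13 over 15060 transcripts, with 18 genes on each side of the table's median. At least 4-fold, 3 of 36 were higher (8.33%, against 13.8% of all transcripts) and 0 were lower (against 10.6%). At least 2-fold, 11 were higher (30.6%, against 31.5%) and 4 lower (11.1%, against 26.6%). The 3 past 4-fold were Tbx3 at 3.43, Esrrb at 3.20 and Il6st at 2.39, which had 0, 0 and 9 reads in the mutant input. With a pseudocount of 5, 0 of the 36 passed. Pou5f1, Sox2, Nanog and Tet1, in contrast, had values of 0.12, 0.44, -0.21 and 0.12. The remaining core factor, Sall4, was at 1.38, with 5 reads in the mutant input and 28 in the mock input.

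A wider list of 50 genes that act in or around the circuit was compared between the IPs, with 49 in the table and 48 measured. Its median log2 ratio was 0.23, 5 of 48 were at least 2-fold higher (against 28.8% of all transcripts) and 6 of 48 at least 2-fold lower (against 15.0%). The naming rule took the glucose transporter gene Slc2a3, the E-cadherin gene Cdh1 and Jarid2, a partner of Polycomb repressive complex 2, for their mean values, which also depend on transcript length. Their IP ratios were 1.40 for Slc2a3 (1.32 to 1.48), 1.3 for Cdh1 (1.21 to 1.39) and 1.32 for Jarid2 (1.22 to 1.43).

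Of those past 2-fold, 5 had at least 20 reads in the sum of the IPs. Smad7, an inhibitor of TGF-beta signalling, had 98 reads in the mutant IP against 37 in the mock IP, which gives a ratio of 2.45 (1.66 to 3.68), and Lin28b, which blocks let-7 maturation, had 17 and 4, a ratio of 3.94 (1.28 to 16.1). On the lower side, the ETS factor Etv5 had 121 reads in the mutant IP against 241 in the mock IP, which gives a ratio of 0.465 (0.371 to 0.581). Dusp6, a phosphatase that acts on ERK, had 3 and 18 reads, a ratio of 0.154 (0.0291 to 0.529). Id1, a target of BMP signalling, had 18 and 36, a ratio of 0.463 (0.247 to 0.837). Etv5 and Dusp6 are both known targets of FGF and ERK signalling, but they were named here for passing 2-fold. An effect on that pathway was not tested. Etv4, a relative of Etv5 on the same list, gave 1.18 (0.86 to 1.63).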

How the data were processed

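Bowtie and mm9 are named in the submitters' processing notes. The Bowtie version, read counter, strand setting and treatment of multiply aligned reads were not given in the sources used here. Each deposited column is a signal per RefSeq transcript: 100% of the values were whole reads, within 0.02, divided by a factor of 2.7 (mutant IP), 1.8 (mutant input) or 2.5 (both mock libraries), whose meaning was not given in the sources used here. Depth was 291175 to 2275647 reads per library. Values were kept as deposited. All 26 gene names that had become dates were restored through RefSeq accessions (GRCm38 table, names only).

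Log2 ratios used a pseudocount of 1 among transcripts with at least 1 in a library of the ratio, which understates changes of low genes. The table's median ratios come from these log2 values, while the genes' ratios and intervals have no pseudocount. Ratios between conditions were counted past 2-fold, IP over input and the specific enrichment past 4-fold, and as interval shares. Reads gave exact conditional binomial 95% intervals (scipy 1.17.1). They were checked on simulated Poisson reads, the model they assume, without excess zeros or PCR copies. That check cannot show their coverage in these data. Zeros were set against a floor of 3 reads per library. No count test was run on the recovered reads, because 1 library per group leaves no replicate to estimate the spread. Members with at least 50 reads in the mean of the IPs are given in all 4 libraries; other members by reads. Of the wider list, the 3 genes with the highest mean value and those past 2-fold between the IPs with at least 20 reads are named. Genes, lists and naming rule were chosen with earlier results of these data known. Alternatives were the pseudocount, a filter on low values, 3 scalings and another fold threshold; minimum read sums were added after seeing the data. The noncoding table, which lists none of these genes, was not used.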

Additional observations from a re-analysis of the deposited data

Results flagged for a closer look

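With the deposited scaling, Gdf3 was the only one of the 36 genes whose IP over input had opposite signs in the conditions. Its log2 value was -0.11 in the mutant and 0.58 in the mock, each from 1 library pair, and the difference was not tested. The interval in the mutant includes equality. The signs depend on the scaling: with median centring Gdf3 was at -2.57 in the mutant and -1.94 in the mock, with equal totals at -2.35 and -2.02, and without Lars2 at -1.88 and -1.38. Other genes then had opposite signs, such as Il6st at 2.17 in the mutant and -0.35 in the mock and Utf1 at -0.27 and 1.37, both with median centring.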

How the results depend on the processing

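No paired analysis was possible because each group has 1 library, and for the same reason no library could be left out. Each of the 36 genes has 1 listed transcript, so summing transcripts gives identical values. Scaling moved the median of all transcripts between the IPs (log2 0.38) to 0.01 with median centring, 0.20 with equal totals and 0.01 with equal totals without Lars2, between the inputs (0.51) to 0.03, -0.06 and -0.08, in mutant IP over input (2.44) to 0.79, 1.14 and 1.3, and in mock IP over input (2.32) to 0.87, 1.01 and 1.3. The cause of the changes below was not tested, beyond what fewer genes, a higher threshold or a larger pseudocount brings.

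Between the IPs the counts of 4 higher and 1 lower became 0 and 0 with a pseudocount of 5 or a 4-fold threshold, 1 and 0 with a mean value of at least 5 or 100 reads in the sum, 1 and 1 with median centring (L1td1 lower) or equal totals (Dppa3 lower), and 1 and 2 without Lars2 (both lower). Between the inputs, 4 and 5 became 2 and 3 with a pseudocount of 5, and 2 and 2 with a mean value of at least 5, a 4-fold threshold or 20 reads in the sum; they were 3 and 5 with median centring and 3 and 7 with either equal total. For mutant IP over input, the median of 3.07 became 0.91 with median centring, 1.27 with equal totals and 1.53 without Lars2, and 28 higher and 0 lower became 9 and 2, 13 and 2, and 14 and 1; at 2-fold 1 was lower. For mock IP over input, 2.88 became 0.61, 0.64 and 1.29 and 27 higher became 7, 8 and 10; the 1 lower became 0 with a pseudocount of 5 or a mean value of at least 5, and 2 with equal totals. For the specific enrichment, 3 higher became 0 with a pseudocount of 5, 0 lower became 1 with each of the 3 scalings, and 2-fold gave 11 higher and 4 lower.

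Past 4-fold in the main setting, these IP over input values changed sign. In the mutant with median centring they were -0.36 for Pou5f1, -0.047 for Klf5, -0.036 for Nodal, -0.27 for Utf1 and -0.17 for Mycn, and with equal totals -0.11 for Pou5f1 and -0.032 for Utf1. In the mock they were -0.54 and -0.59 for Pou5f1, -0.13 and -0.18 for Nanog, -0.35 and -0.40 for Il6st, and -0.24 and -0.29 for Nodal, with median centring and equal totals in each case. Statements on these genes hold only relative to the table's median.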

Other observations

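Zic1, Cer1 and Eomes had lower values in the IPs than in the inputs, and these 3 were chosen after their values were seen. Over their lists together, most measured genes went the other way. Ectoderm markers had a log2 IP over input above 0 for 4 of 6 in the mutant and 6 of 7 in the mock, endoderm markers for 3 of 4 in each, and mesoderm markers for 1 of 2 in the mutant and 2 of 3 in the mock. Zic1 had 30 reads in the mutant IP against 26 in the mock IP, with 66 in the mutant input and 117 in the mock input, so that it reached 0.303 times the input value in the mutant (95% interval 0.190 to 0.473) and 0.222 times in the mock. Cer1, a secreted inhibitor of Nodal and BMP, had 3 reads in the mutant IP against 2 in the mock IP, with 18 and 23 in the mutant and mock inputs. Eomes, a T-box factor of early mesendoderm, had 16 and 9 reads in the mutant and mock IPs, and 17 and 34 in the inputs. In the table, 17.6% of transcripts in the mutant and 15.5% in the mock had an interval below the median ratio.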
